A study of Homo sapiens with 3 samples.

Results

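The RNAs described here are 9 noncoding RNA genes transcribed by RNA polymerase III: RN7SK (7SK RNA), RN7SL1 and RN7SL2 (7SL RNA), RMRP (RNase MRP RNA), RPPH1 (RNase P RNA), the vault RNA genes VTRNA1-1, VTRNA1-2 and VTRNA1-3, and the selenocysteine transfer RNA gene TRU-TCA1-1. They were chosen with the peak lists of this experiment known, so their read numbers are given as a description and no test is attached to them. Of the 9 genes, among 59679 nuclear genes of the RefSeq table, 7 held peaks and 2, VTRNA1-1 and VTRNA1-3, held none. The data are 3 replicates of an easyCLIP experiment: UV light ties RNA to the proteins that touch it, an RNase shortens the RNA, and the pieces that come down with the tagged protein are sequenced. HEK293T cells, a line from human embryonic kidney labelled as wild type, were grown on a 15 cm plate and transfected with 750 ng of plasmid coding for HNRNPA0, one of the hnRNP A/B proteins that bind RNA, with an HA tag. UV light of 254 nm (0.3 J/cm2) was given and the cells were harvested. All 3 replicates carry the vector and form 1 group, so no library without the tagged protein was compared, and the level of the protein is that of a transfection. The replicates were joined into 1 pool after barcoding, and the labels do not say whether they were separate cultures, so the spread between them may be technical. The study concerns RNA G-quadruplexes, structures of guanine-rich RNA, and the proteins that bind them in living cells.

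RNA polymerase III makes short, strongly folded RNAs that work inside protein particles. 7SK RNA holds the elongation factor P-TEFb in an inactive particle through HEXIM proteins, with LARP7 at its 3' end and the capping enzyme MEPCE, and hnRNP A1 and A2/B1 are known to bind 7SK RNA once P-TEFb has left it. 7SL RNA is the scaffold of the signal recognition particle, which docks ribosomes at the endoplasmic reticulum. Its Alu domain is built from both ends of the RNA and its S domain from the middle. RNase P RNA trims the 5' ends of precursor transfer RNAs, RNase MRP RNA is its relative in ribosomal RNA processing, vault RNAs lie in the vault particle or free in the cytoplasm, and the selenocysteine transfer RNA reads UGA codons of selenoprotein messages.

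Each deposited line is 1 peak with a whole number at the end of its name, read here as the reads in the peak and called the read number. The lists held 15486 to 17791 distinct peaks, with summed read numbers of 99141 to 114203 on nuclear chromosomes and a lowest read number of 3. The members held 23, 21 and 21 peaks in replicates 1, 2 and 3, 65 in all, and each gene's peaks lay on a single strand. No peak of either strand lay within 1000 nt outside any of the 9 genes in any replicate. The sources used here do not say whether RNA outside the authors' gene models was searched, so these flanks may not have been examined. A region, meaning same-strand peaks of different replicates that shared 1 bp or more, was present in all 3 replicates in 7 of the 9 genes. Of all nuclear RefSeq genes 2.45% held such a region, as did 0.918% of those of 500 nt or less and 21.8% of those with a peak in any replicate, but since the members were picked from these lists nothing is read from that difference. The members spanned 1902 nt in sum and took 1.52%, 1.89% and 1.98% of the nuclear summed read number in replicates 1, 2 and 3. Neighbouring peaks can hold the same reads, and when only the highest peak of every touching run was counted the share was 0.860% ± 0.0904 (SD, n = 3). These files hold no measure of RNA level, so a read number does not separate binding by HNRNPA0 from the abundance of the RNA.

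TRU-TCA1-1 had the highest peak of the 9 genes and RN7SK the next. The highest read numbers of TRU-TCA1-1 were 134, 258 and 335 in replicates 1, 2 and 3, and those of RN7SK were 134, 141 and 181. The values of the pair overlap, since the lowest of TRU-TCA1-1 is under the highest of RN7SK. RMRP followed with 83, 77 and 75, VTRNA1-2 with 57, 69 and 73, and RPPH1 with 47, 40 and 39. RMRP and VTRNA1-2 came within 2 reads of each other at their nearest values, and RPPH1 lay under both in every replicate. RN7SL2 had 11, 16 and 12, and RN7SL1 had 7, 5 and 9, both under the other 5 genes with peaks in every replicate. Among 2337 nuclear regions found in all 3 replicates, ranked by mean highest read number, that of TRU-TCA1-1 was number 6, those of RN7SK numbers 23 and 31, those of RMRP numbers 52 and 57, that of VTRNA1-2 number 61 and that of RPPH1 number 103. The single region of RN7SL2 was number 653 and that of RN7SL1 number 1440.

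**Figure D1:**
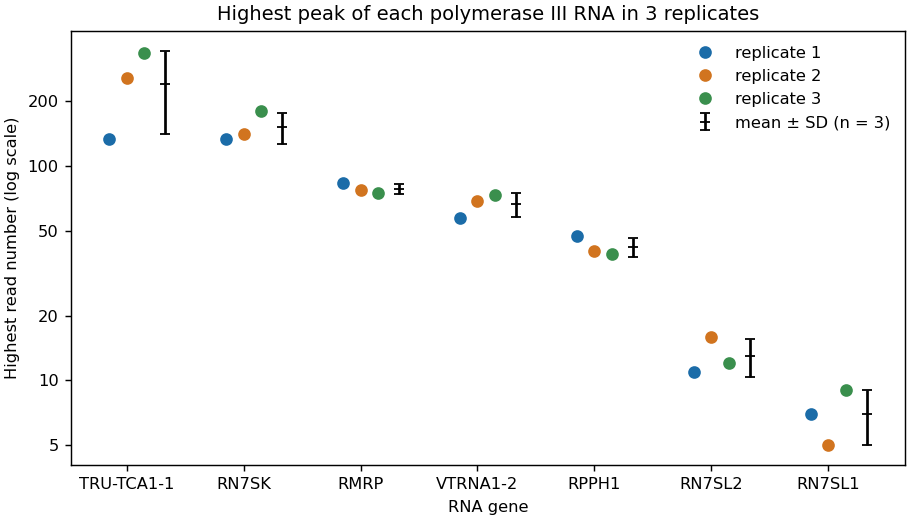
Highest read number of the 7 genes with peaks (y axis, log scale) in each replicate (coloured points), with the mean and SD of the 3 replicates as a black bar. TRU-TCA1-1 spreads from 134 to 335, RMRP from 75 to 83, and the 7SL genes stay at 16 or under.

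The selenocysteine transfer RNA gene was covered from its first to its last nucleotide in every replicate. TRU-TCA1-1 lies at chr19:45478601-45478687 (hg38), 87 nt long, with its peaks on the minus strand. Replicate 1 divided it into 4 touching peaks with read numbers of 133 or 134, replicate 2 into 3 with 256 or 258, and replicate 3 into 3 with 334 or 335. The touching peaks of a replicate thus carried nearly equal read numbers over the whole gene. The highest read number averaged 242 ± 101 (SD, n = 3), which is 1.34, 2.60 and 2.93 per 1000 nuclear read numbers in replicates 1, 2 and 3. The ratio of its highest to its lowest replicate was 2.5. Among the 84 nuclear regions with a mean of 50 or more, the median ratio was 1.51 and 5.95% had a ratio of 2.5 or more, TRU-TCA1-1 included. The peaks were listed under 1 Ensembl gene ID, ENSG00000012061.15, which had no other peak in any of the 3 lists. Which gene this ID stands for is not given in the sources used here, so it may not be the transfer RNA's own. TRU-TCA2-1, the other selenocysteine transfer RNA gene of the table, held no peak. The nuclear genes with a strand in the reference whose highest read numbers came nearest to those of TRU-TCA1-1, by Euclidean distance of the log2 values over the 3 replicates, were HSP90AA1, an inducible cytosolic chaperone, with 210, 212 and 224, AMOT, the scaffold protein angiomotin, with 181, 168 and 191, and NUCKS1, a chromatin-associated protein, with 168, 163 and 172. Their distances were 0.92, 1.11 and 1.21.

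Peaks on 7SK RNA fell in 2 stretches inside the molecule, with the same outer edges to within 5 nt in the 3 replicates. RN7SK lies at chr6:52995620-52995951 (hg38), 332 nt long, on the plus strand, and positions are counted from its 5' end. The longer stretch, nt 66 to 185 over the 3 replicates, had highest read numbers of 134, 141 and 181, and the shorter, nt 207 to 274, had 117, 128 and 150. Their means were 152 ± 25.4 and 132 ± 16.8 (SD, n = 3), and the longer stretch was higher in each replicate. All 3 replicates covered nt 71 to 179 and nt 236 to 272, which are 44.0% of the RNA. No replicate had a peak at nt 1 to 65, at nt 186 to 206 between the stretches, or at nt 275 to 332, the last 58 nt. The first covered position was nt 68, 66 and 71 and the last was nt 274, 272 and 273 in replicates 1, 2 and 3. The edges that face each other varied more: the longer stretch ended at nt 179, 184 and 185 and the shorter began at nt 236, 216 and 207. The RNA begins with the hairpin that binds HEXIM1 and ends with the one that binds LARP7, and since the boundaries of the hairpins were not in the files used here, the peaks were not assigned to them. The authors' lines also mark a short stretch, 4 nt long in 97.5% of lines, inside each peak. In the peaks at nt 144 to 179 and 144 to 184 of replicates 1 and 2 it was nt 163 to 166 in both, and in that at nt 139 to 185 of replicate 3 it was nt 159 to 162. In the last peak of the RNA it began at nt 256, 257 and 261. What the short stretch stands for is not given in the sources used here.

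**Figure D2:**
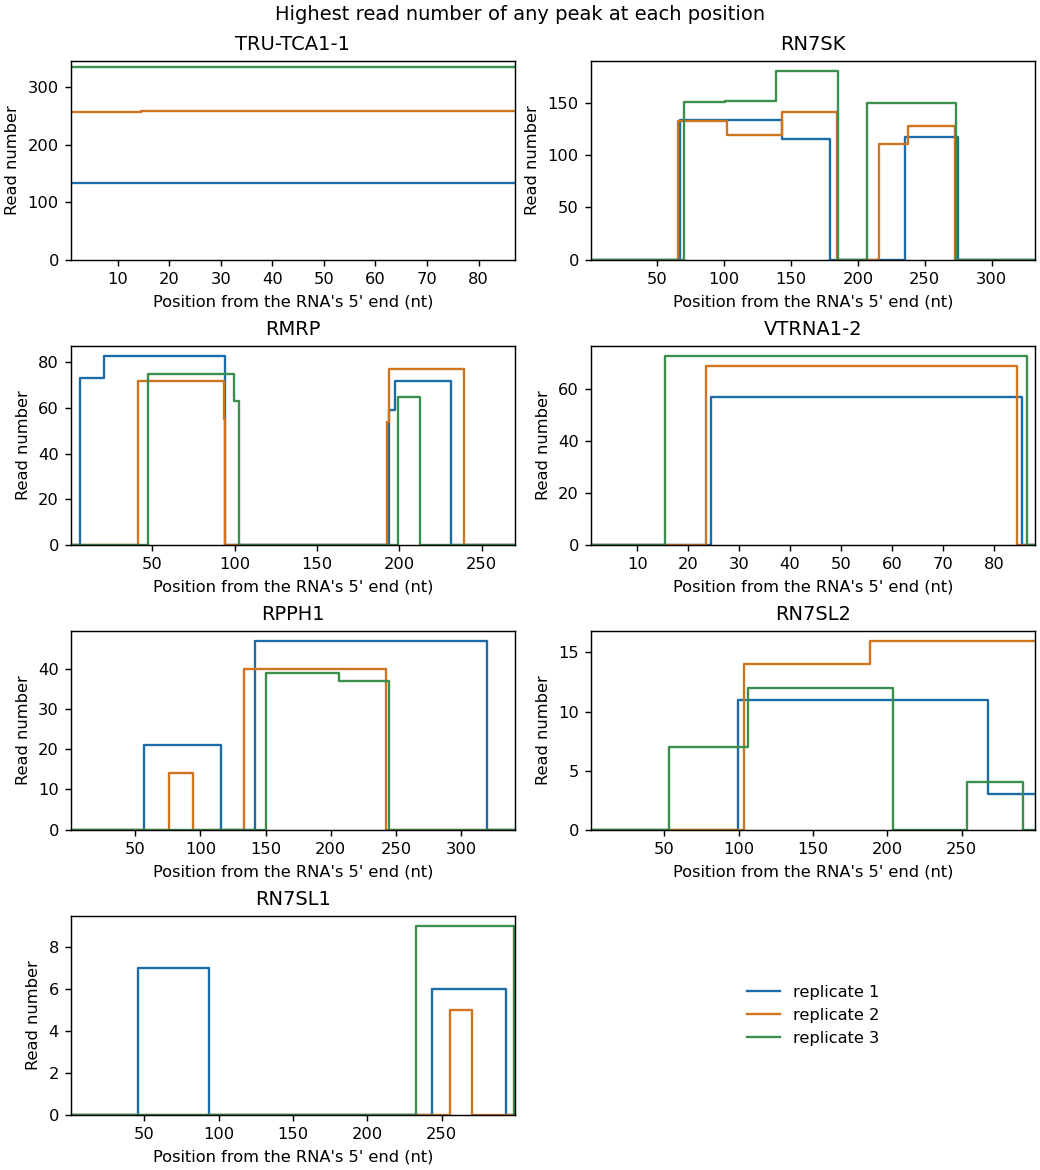
Highest read number of any peak at each position (y axis) against the distance from the RNA's 5' end in nt (x axis), in 7 panels, 1 per gene, with a line per replicate. In RN7SK the lines rise and fall together at nt 66 to 185 and nt 207 to 274, in TRU-TCA1-1 they are flat over all 87 nt, and in RPPH1 and RMRP the edges differ between replicates.

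The related RNAs of RNase MRP and RNase P differed in where their peaks lay. RMRP lies at chr9:35657750-35658019 (hg38), 270 nt, with its peaks on the minus strand. Its 5' stretch, nt 7 to 102, had highest read numbers of 83, 72 and 75, and its 3' stretch, nt 193 to 239, had 72, 77 and 65. Neither stretch was the higher one in all replicates. Nt 103 to 192, a length of 90 nt or 33.3% of the RNA, held no peak in any replicate, and neither did nt 240 to 270. The 5' stretch began at nt 7 in replicate 1, with a peak at nt 7 to 20 of read number 73, and at nt 42 and 48 in replicates 2 and 3. All 3 replicates covered nt 48 to 94 and nt 200 to 212. The mean of the highest read number was 78.3 ± 4.16 (SD, n = 3).

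RPPH1 lies at chr14:20343071-20343411 (hg38), 341 nt, with its peaks on the minus strand, and all 3 replicates covered nt 151 to 242, which is 27.0% of the RNA. Its region ran from nt 134 to 319, with highest read numbers of 47, 40 and 39, a mean of 42.0 ± 4.36 (SD, n = 3). The part past nt 244 came from 1 wide peak of replicate 1, at nt 142 to 319. A weaker peak toward the 5' end was found at nt 57 to 115 with a read number of 21 in replicate 1 and at nt 76 to 94 with 14 in replicate 2, and replicate 3 had none there. Nt 1 to 56, nt 116 to 133 and nt 320 to 341 held no peak.

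Both RNAs were listed under 2 Ensembl gene IDs each, with different read numbers for overlapping peaks. In RMRP the highest read numbers were 83, 77 and 75 under ENSG00000269900.3 and 64, 55 and 63 under ENSG00000277027.1. In RPPH1 they were 47, 40 and 39 under ENSG00000259001.3 and 29, 37 and 38 under ENSG00000277209.1. In each replicate the first ID of the pair was the higher. A sum over the peaks of RMRP therefore counts many reads more than once: it came to 405, 258 and 203, against 155, 149 and 140 with each run of touching peaks once. The 7SL genes also stood under 2 IDs each. In RN7SL2 the highest read numbers were 11, 16 and 12 under ENSG00000282885.1 and 9, 11 and 11 under ENSG00000274012.1. In RN7SL1 the peaks of both IDs had the same intervals.

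Of the vault RNA genes, VTRNA1-2 held 1 peak in each replicate and its neighbours held none. VTRNA1-2 lies at chr5:140718926-140719013 (hg38), 88 nt, with its peaks on the plus strand, inside the interval of the long noncoding RNA gene LOC105378198, which had no other peak. The peaks spanned nt 25 to 85, 24 to 84 and 16 to 86 with read numbers of 57, 69 and 73, a mean of 66.3 ± 8.33 (SD, n = 3). They covered 69.3%, 69.3% and 80.7% of the RNA, and the first 15 nt held no peak. VTRNA1-1, 98 nt at chr5:140711276-140711373, and VTRNA1-3, 88 nt at chr5:140726159-140726246, are close relatives in the same cluster. The lists hold peaks past a threshold only, so the lack of a peak there is not a measured absence, and how the authors placed reads that match several copies is not given in the sources used here.

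The highest peaks of the 7SL genes were the weakest among the 7 genes. Stretches covered in all 3 replicates lay near the 3' end in both, and in the middle in RN7SL2 only. RN7SL2, at chr14:49862551-49862849 (hg38), 299 nt with its peaks on the minus strand, was covered in all 3 replicates at nt 104 to 203 and nt 254 to 291. The former lies in the middle of the RNA, from which the S domain is built, and the latter near its 3' end, which is part of the Alu domain. Its highest peaks, with a mean read number of 13.0 ± 2.65 (SD, n = 3), spanned nt 100 to 267, 189 to 302 and 107 to 203, so that of replicate 2 lay nearer the 3' end and reached past it. Replicate 3 also had a peak at nt 54 to 106 with a read number of 7, and nt 1 to 53 held none. RN7SL1, at chr14:49586580-49586878 (hg38), also 299 nt, with its peaks on the plus strand, was covered by all 3 only at nt 256 to 270, within the positions of the 3' stretch of RN7SL2. A peak at nt 46 to 93 with a read number of 7 was found in replicate 1 alone. RN7SL1 lies within the interval of RPS29, a ribosomal protein gene on the opposite strand, and RN7SL2 within that of LOC105378179 on the same strand. The 7SL copies are nearly identical, so the division of reads between them is uncertain, and RN7SL3, another 7SL gene of the table, held no peak.

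The deposited p-values, 1 per peak from the authors' peak caller with no adjustment stated, did not follow the read numbers across these genes. In replicate 1 the peak of RN7SK at nt 68 to 143 and 3 peaks of TRU-TCA1-1 had the same read number of 134, with p-values of 4.47e-18 for RN7SK and 5.17e-227 to 6.30e-231 for TRU-TCA1-1. That RN7SK peak had the highest p-value of the gene, and its other peaks in replicate 1, of 115 and 117, had 6.17e-35 and 2.88e-33. In replicates 2 and 3 the p-values of RN7SK ranged from 1.04e-28 to 3.68e-53. In replicates 2 and 3 the p-values of TRU-TCA1-1 were listed as 0. The peak of VTRNA1-2 had p-values of 0.00327, 0.00132 and 0.0252 with its read numbers of 57, 69 and 73. The median p-value of the 64, 56 and 54 nuclear peaks with read numbers of 50 to 80 was 5.31e-43, 3.88e-43 and 1.80e-50, and the VTRNA1-2 peak had the highest p-value among them in each replicate. Of nuclear peaks outside RN7SK with a read number within 20% of that of its highest peak, 100%, 100% and 95.8% had a lower p-value in replicates 1, 2 and 3. The same shares were 100%, 88.1% and 91.2% for RMRP and 100%, 95.9% and 80.8% for RPPH1. For RN7SL2 they were lower, 48.2%, 46.3% and 34.3%, and for RN7SL1 they were 99.1%, 44% and 99.2%. They hold for the highest peak only, and peaks of 1 gene could differ widely. In replicate 1 of RMRP the highest peak, of 83, had 1.05e-07 and that of 73 at nt 7 to 20 had 3.02e-39. In replicate 3 the peak of 75 had 1.48e-13 and that of 65 had 2.13e-36. In replicate 2 the peaks of RMRP ranged only from 5.25e-16 to 1.83e-09. For TRU-TCA1-1 in replicate 1, 0 of 29 such peaks had a lower p-value. In replicates 2 and 3 its p-value of 0 leaves no lower one, and in replicate 2 it was shared by 3 of 6 such peaks. What the caller compared a peak with is not given in the sources used here, and the cause of this difference was not tested.

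**Figure D3:**
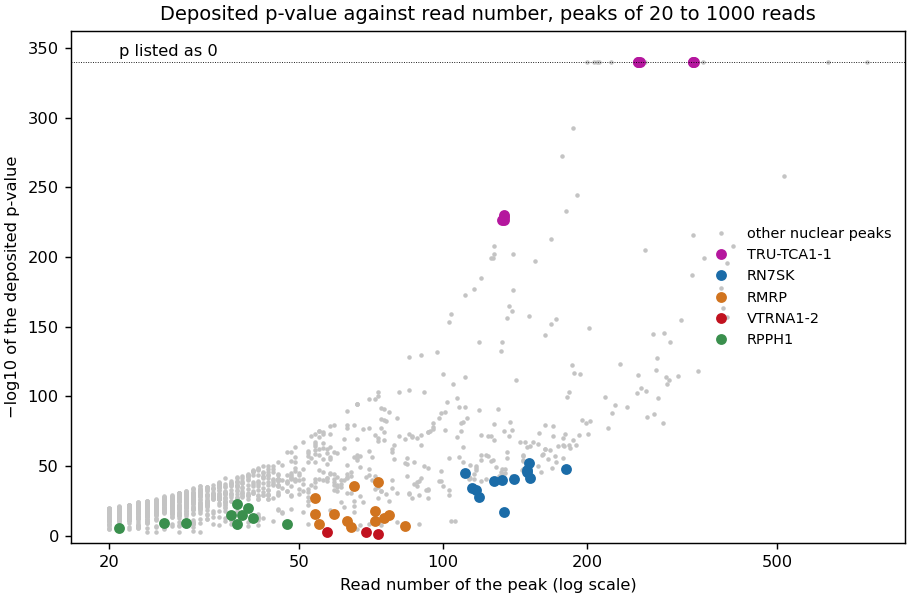
Minus log10 of the deposited p-value (y axis) against the read number of the peak (x axis, log scale) for nuclear peaks of all 3 replicates with read numbers of 20 to 1000, with p-values listed as 0 on the dotted line. Peaks of RN7SK, RMRP, RPPH1 and VTRNA1-2 lie mostly in the lower part of the cloud and those of TRU-TCA1-1 in its upper part.

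Other RNAs made by RNA polymerase III held regions in few cases. Of 540 further genes, mostly transfer RNA and 5S ribosomal RNA genes, 13 held a region in all 3 replicates, or 2.41%, beside 2.45% of all nuclear genes and 0.918% of those of 500 nt or less. TRY-GTA2-1, a tyrosine transfer RNA gene, had highest read numbers of 72, 90 and 55. It lies at chr2:27050782-27050870 (hg38) inside AGBL5, which held no higher peak. Its peaks were listed under 1 Ensembl ID, ENSG00000084693.15, which may be that of the gene around it and not of the transfer RNA. RNU6-9, a gene of the U6 small nuclear RNA of the spliceosome, had 66, 72 and 25, with replicate 3 far under the others. TRK-CTT1-1, a lysine transfer RNA gene, had 31, 55 and 66. TRY-GTA5-1, another tyrosine transfer RNA gene, inside TRIM55, had 49, 50 and 40, and TRR-CCT4-1, an arginine transfer RNA gene inside LUC7L2 and FMC1, had 14, 25 and 27. All of these were under TRU-TCA1-1 in every replicate. In all, 11 of the 509 other nuclear transfer RNA genes, 2 of the 6 genes of U6 and U6atac RNA, and none of the 17 5S ribosomal RNA genes or the 4 Y RNA genes held a region in all 3 replicates. RNY1, a Y RNA bound by the Ro protein, had a peak in replicates 1 and 3 with 18 and 11, and RNY4 in replicate 3 alone with 10, and both were chosen after their values were seen. Every deposited line carried an Ensembl gene ID, and the peaks in transfer RNA genes, TRU-TCA1-1 included, stood under 18 such IDs. Whether RNA outside the authors' gene models was searched is not given in the sources used here, so a transfer RNA gene without a peak may not have been examined.

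Pseudogene copies of 7SK held regions, and those of 7SL, Y and U6 RNA did not. Of 293 copies named RN7SKP, 5 held a region in all 3 replicates, or 1.71%, against none of 684 copies of 7SL, 75 of Y RNA and 1277 of U6. The shares over all nuclear genes and over those of 500 nt or less, 2.45% and 0.918%, lie on either side of it, and the difference between kinds of copy was not tested. RN7SKP203, at chr2:76445170-76445410 (hg38), had highest read numbers of 30, 37 and 27, and lies in no other gene of the table. RN7SKP80, within SERHL2, had 17, 14 and 15. RN7SKP71, within HECTD4, had 6, 15 and 6, RN7SKP287, within TTC17, had 8, 3 and 4, and RN7SKP9, within UBAC2, had 4, 4 and 3. The region at RN7SKP287 reached only 32 nt into the copy, and the rest of it lay in TTC17. RN7SKP203 had less than RN7SK in each replicate. The copies resemble RN7SK in sequence, so reads of 7SK RNA placed at a copy and reads of the copy or the gene around it cannot be told apart here.

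**Figure D4:**
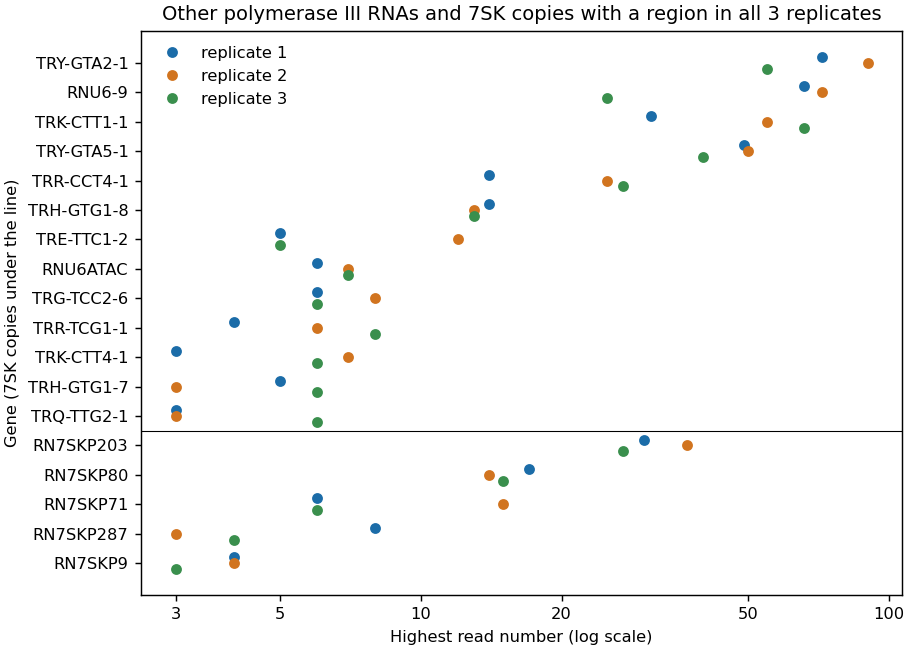
Highest read number (x axis, log scale) in each replicate (coloured points, set apart vertically) for the 13 other polymerase III genes and, under the line, the 5 copies of 7SK with a region in all 3 replicates. TRY-GTA2-1, RNU6-9, TRK-CTT1-1 and TRY-GTA5-1 reach 50 or more in at least 1 replicate, and RN7SKP203 reaches 37.

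The genes of the proteins that bind or make these RNAs held regions in 9 of 67 cases, or 13.4%, beside 6.35% of all nuclear protein-coding genes. Regions were counted over the whole gene interval, so whether they lie in the messenger RNA or in introns was not examined. Among the 7SK particle proteins 2 of 7 did. CCNT1, the cyclin T1 subunit of P-TEFb, held 2 regions with highest read numbers of 54, 42 and 68, and CCNT2, cyclin T2, held 1 with 5, 5 and 5, while LARP7 had a peak in 1 replicate and HEXIM1 in none. Of the signal recognition particle proteins 2 of 6 did, SRP14 with 21, 21 and 19 and SRP9 with 17, 19 and 16, which together bind the Alu domain of 7SL RNA. Of the La and Ro proteins, which bind the ends or the folds of polymerase III transcripts, and their LARP relatives, 2 of 4 did. RO60, the Ro protein, held 5 regions with 41, 51 and 35, and LARP4, which binds poly(A) tails of messenger RNA, held 2 with 17, 20 and 17. SSB, the La protein, had 6, 3 and 5 and no region in all 3 replicates. None of 11 RNase P and MRP proteins and none of 3 vault proteins held a region in all 3. In the selenocysteine pathway 1 of 8 did, SARS1, the seryl-tRNA synthetase that loads the transfer RNA, with 6, 5 and 5. Of 28 subunits and factors of the polymerase 2 did, the TFIIIC subunit genes GTF3C4 with 13, 13 and 9 and GTF3C1 with 4, 7 and 4. These genes were not matched on length or level with others, and nothing particular to the lists is drawn from the counts.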

How the data were processed

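The authors deposited 1 peak list per replicate on hg38, and per the submitters' processing notes bedtools and deepTools were used, with no version named. Each deposited line holds an interval, a strand, a p-value under 0.05 and a name. The aligner, the peak caller and the use of the random bases of the adapters are not given in the sources used here. Lines with the same interval and strand were counted once, which removed 574 to 711 lines per replicate. Where such lines differed, the highest read number and the lowest p-value were kept, and these can come from different lines. Genes were placed with the RefSeq table of GRCh38.p14. It gives no strand for the members, so the strand that held all their peaks was used. For other genes the strand came from the RefSeq promoter table where it had one, and peaks on either strand were counted otherwise. Peaks of the replicates were merged into regions with Python 3.11.15, and the merging was tested on simulated lists, where 200 of 200 planted stretches were recovered. The members and the gene lists were chosen with earlier results of these data known. The genes named beyond the members are, for each list, up to 5 with a region in all 3 replicates by highest read number, the 3 nearest genes to the leading member, and those said to be chosen after their values were seen or that show a lack of peaks. The planned motif search was not run. Read numbers cover reads in peaks only, and no counting interval is given because touching peaks share reads. Alternatives tried were the overlap rule, a stricter p-value, the number of replicates required, strand, runs of peaks, repeated lines, the mitochondrial total and each replicate left out.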

Additional observations from a re-analysis of the deposited data

How the results depend on the processing

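The 7 genes with a region in all 3 replicates stayed 7 when 2 or more replicates sufficed, with either strand, with 50% of the peak inside the gene and without each replicate in turn, each time with the same genes. Of these settings only the 50% rule could have changed the number. The others loosen the rule, and the 2 genes left out held no peak on either strand, so nothing is drawn from them. Their number was 6 with an overlap of 50% of both peaks, which lost RN7SL1, and 5 in the 50% of peaks with the lowest p-values, which lost RN7SL1 and VTRNA1-2. The share of the nuclear summed read number held by the members, 1.80% ± 0.241 (SD, n = 3), was 0.860% with each run of touching peaks once, 2.35% in the 50% with the lowest p-values, 0.762% with mitochondrial peaks kept in the total and 1.75% with every deposited line counted, and it ranged from 1.71% to 1.93% without each replicate. Positions covered in all 3 replicates made up 31.4% of the summed length of the members, against 57.5% covered in any replicate, 25.5% in the 50% with the lowest p-values and 32.8% to 37.7% without each replicate. The order of the means of TRU-TCA1-1 and RN7SK turned with the measure: with runs of touching peaks counted once, RN7SK had 284 ± 42.0 and TRU-TCA1-1 242 ± 101 (SD, n = 3). This measure adds 2 runs for RN7SK and has 1 run for TRU-TCA1-1. In replicates 1, 2 and 3 it gave 251, 269 and 331 for RN7SK and 134, 258 and 335 for TRU-TCA1-1, so TRU-TCA1-1 stayed higher in replicate 3. Of the alternatives on single members, 75 moved the value by less than 1 SD between replicates and 23 by more. No paired analysis was possible because the 3 replicates form 1 group. The highest read numbers of RN7SL1, 7, 5 and 9, are near the lowest listed, 3, and a gene with fewer reads than that has no entry.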
